A study of Homo sapiens with 6 samples.

Results

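*DHX9*, *ADAR*, *ADARB1*, *ADARB2*, *ILF2*, *QKI*, *HNRNPL* and *KHSRP*, genes for RNA-binding proteins with known roles in circular RNA (circRNA) formation or RNA editing, were described in total RNA sequencing of human neuroblastoma cultures. The genes were chosen by name, and all 8 were found by symbol among 60651 genes in each of 6 libraries. Of these libraries, 3 carried EtOH (ethanol, the vehicle) in their titles and 3 carried Tet (tetracycline), which the labels describe as given for 5 days. The labels do not agree on the cell model. The titles name the line IMR-5/75, a tag speaks of a knockdown, and the protocol describes SK-N-SH cells with a tetracycline-inducible *MYCN* expression system, kept as single clones under G418 and blasticidin in both groups. The study's methods describe an inducible *MYCN* model in SK-N-AS and an inducible *MYCN* shRNA in IMR-5/75. The libraries are therefore called by their titles, and no direction of *MYCN* is assumed.

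A circRNA forms when the spliceosome joins a downstream splice site to an upstream one, which closes the exons between them into a ring. Base pairing between inverted repeats, often Alu elements, in the introns on both sides can bring these sites together. DHX9 is a helicase that unwinds such double strands, and ADAR edits adenosine to inosine within them, and both are known to lower the output of circRNAs that depend on repeats. QKI and HNRNPL instead bind short single-stranded motifs in flanking introns, and QKI is known to promote circRNA formation. Circular RNAs themselves were not analysed here, because the values count exon reads per gene and do not separate back-splice reads.

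The 5′ windows of *DHX9* and *ADAR* are shown because the levels of these genes moved in opposite directions across the libraries. The windows are RefSeq sequences on GRCh38.p14, from 250 bases before to 50 bases after the annotated start, read 5′ to 3′ on the strand of the gene. The *DHX9* window is chr1:182839097-182839396 on the plus strand, and the *ADAR* window is chr1:154627948-154628247 on the minus strand. Capitals mark the only match in each window to 3 E-box words, namely the canonical form CACGTG, which reads the same on both strands, the variant form CACGCG, and a further variant form CATGTG, each searched on both strands.
DHX9: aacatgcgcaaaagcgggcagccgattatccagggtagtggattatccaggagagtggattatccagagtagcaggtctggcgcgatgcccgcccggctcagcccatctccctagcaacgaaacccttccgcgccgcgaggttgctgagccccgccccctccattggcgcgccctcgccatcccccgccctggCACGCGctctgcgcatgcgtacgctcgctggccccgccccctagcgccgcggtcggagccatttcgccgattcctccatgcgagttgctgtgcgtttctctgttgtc
ADAR: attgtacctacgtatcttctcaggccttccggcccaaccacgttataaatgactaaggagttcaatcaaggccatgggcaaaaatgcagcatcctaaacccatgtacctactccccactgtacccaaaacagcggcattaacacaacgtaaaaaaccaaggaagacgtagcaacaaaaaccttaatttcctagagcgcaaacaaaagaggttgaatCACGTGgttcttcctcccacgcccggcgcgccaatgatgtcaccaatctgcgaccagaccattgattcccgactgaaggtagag
E-boxes are the motif class bound by the MYC family. The *DHX9* window held CACGCG at position -57 from the start, and the *ADAR* window held CACGTG at position -34. Among 35116 promoter windows of the same length, 7.26% held CACGTG, 11.4% held CACGCG and 27.2% held at least 1 of the 3. Promoter entries were found for 7 of the 8 genes, *QKI* having none, and the windows of *ADARB1*, *ADARB2*, *ILF2*, *HNRNPL* and *KHSRP* held none of these letters. A match is a description of the sequence and not evidence of binding.

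The libraries held between 27933378 and 40498065 counts, at which 3 counts correspond to 0.0741 to 0.107 CPM (counts rescaled so that every library has an equal total). EtOH replicate 2 stood apart. On the first principal component of log2 CPM, which held 44.7% of the variance, it scored 84.2, Tet replicate 2 scored 47.3 and the other libraries scored between -55.0 and -1.81. The share of counts from the mitochondrial genome ran from 4.12% in EtOH replicate 2 to 10.01% in EtOH replicate 1. Of the 12 neuroblast markers, *MYCN* among them, 9 passed the filter on low counts, whereas *TH* had 1 count in all 6 libraries. The summed level of all 12 was 719 to 826 TPM (counts per exon length, scaled to a common total) in EtOH and 794 to 910.3 TPM in Tet libraries. Taken one by one, most of the 9 tested markers were higher in Tet libraries. Their median log2 fold change was 1.05. The groups did not overlap for 6 of the 9 (66.7%), all higher in Tet libraries, against 9.20% of all genes tested. *DDC*, an enzyme of dopamine synthesis, passed the threshold (log2 fold change 3.55, edgeR adjusted p = 0.0280). It was at 0.167, 0.361 and 0.198 CPM in EtOH and 3.23, 2.93 and 2.37 CPM in Tet replicates 1 to 3. The lowest of the list was *HAND2*, at -0.14. *DDC* did not pass without any one of EtOH replicates 1 and 3 and Tet replicates 1, 2 and 3 (edgeR adjusted p from 0.106 to 0.208). Of the 14 mesenchymal or Schwann-like markers 11 passed, and *TWIST2*, *COL1A2* and *S100B* were at 0. The summed level of all 14 was 125 to 241 TPM in EtOH and 112 to 167 TPM in Tet libraries. The groups did not overlap for 3 of these 11 (27.3%), all lower in Tet libraries, against 8.28% of all genes tested. The extremes were *NOTCH2* at a log2 fold change of -1.38 and *SNAI2* at 1.84. The part of these markers in the results below was not tested. Blood and endothelial markers summed to at most 0.715 TPM in any library, 1 of the 9, *PTPRC*, was tested (log2 fold change -0.52), and *CD3E*, *HBA1*, *HBB* and *VWF* were at 0. *MYCN*, the gene the inducible systems target, was at 158, 256 and 156 CPM in EtOH replicates 1 to 3 and at 196.6, 200.1 and 145.4 CPM in Tet replicates 1 to 3. Its log2 fold change was -0.07 (edgeR adjusted p = 0.956), so the targeted gene did not check the labels.

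The genes differed widely in level. Levels were compared in TPM, which divides by the merged length of all annotated exons of a gene. Averaged over the 6 libraries, *ILF2* stood at 332 ± 59.6, *DHX9* at 198 ± 57.8, *QKI* at 74.2 ± 27.2 and *ADAR* at 40.5 ± 9.39 (SD, n = 6). *KHSRP* stood at 24.1 ± 9.40, *ADARB1* at 6.19 ± 1.47, *HNRNPL* at 5.71 ± 1.43 and *ADARB2* at 0.205 ± 0.104 (SD, n = 6). By this measure the ranges of neighbours did not overlap at 3 steps, from *DHX9* to *QKI*, from *KHSRP* to *ADARB1* and from *HNRNPL* to *ADARB2*. The order of the highest 3 genes depends on the length used, which was 2261 bases for *ILF2*, 5898 for *DHX9* and 17364 for *QKI*. In CPM, which does not use length, their means were 275, 426 and 468. The length of the transcripts present in these cells was not measured. *ILF2* was above *DHX9* and *QKI* above *ADAR* in 6 of 6 libraries, although their ranges over libraries overlapped. *ADAR* was above *KHSRP* in 5 of 6 libraries and *ADARB1* above *HNRNPL* in 4 of 6, so these neighbours were not separated beyond their spread. The ratio of *DHX9* to *ADAR* in TPM was 2.77, 11.4 and 3.41 in EtOH replicates 1 to 3 and 4.70, 6.51 and 4.01 in Tet replicates 1 to 3. The 3 Tet values lay inside the range of the EtOH values.

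None of the 8 genes passed the threshold between Tet and EtOH libraries (edgeR quasi-likelihood test, Benjamini-Hochberg adjusted p under 0.05), against 0.236% of the 22443 genes tested. One of the 8, *ADARB1*, had an unadjusted p under 0.05, against 10.8% of all genes. The groups did not overlap for *ADARB1*, higher in Tet libraries, and *ILF2*, lower in Tet libraries, which is 2 of 8 genes (25%) against 17.5% of all genes. The median log2 fold change was -0.01 over the 8 genes and -0.01 over all genes tested. In such bulk cultures, a smaller fraction of cells with a transcript and less of it per cell cannot be told apart.

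*DHX9* (ENSG00000135829.17, chr1:182839347-182887982, plus strand) encodes the helicase that resolves paired repeats in RNA. It was measured at 323, 568 and 323 CPM in replicates 1 to 3 of EtOH, and at 436, 533 and 376 CPM in those of Tet. Both replicates numbered 2 were the highest of their group, and the groups overlapped. The means were 405 ± 142 CPM and 448 ± 79.2 CPM (SD, n = 3 each), and the log2 fold change was 0.15 (SE 0.25, 95% interval -0.43 to 0.72, edgeR adjusted p = 0.902). The direction turned with single libraries. The log2 fold change was 0.48 without EtOH replicate 2 (edgeR unadjusted p = 0.0170, adjusted p = 0.147), -0.015 without EtOH replicate 1 and -0.018 without EtOH replicate 3. An antisense RNA, *DHX9-AS1*, covers 1.87% of the exon bases of *DHX9*, and the counting did not use strand.

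The adenosine deaminases differed from each other. *ADAR* (ENSG00000160710.18, chr1:154581695-154628013, minus strand), the broadly expressed editing enzyme, was at 242, 103 and 197 CPM in EtOH and at 192, 169.7 and 195 CPM in Tet replicates 1 to 3. EtOH replicate 2, the library with the most *DHX9*, had the least *ADAR*, and the 3 Tet values lay inside the range of the EtOH values. The means were 181 ± 70.6 CPM and 186 ± 13.8 CPM (SD, n = 3 each), and the log2 fold change was 0.04 (SE 0.28, 95% interval -0.59 to 0.67, edgeR adjusted p = 0.982). It ran from -0.23 without EtOH replicate 2 to 0.29 without EtOH replicate 1.

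*ADARB1* (ENSG00000197381.16, chr21:45073853-45226560, plus strand) encodes ADAR2, the enzyme that recodes glutamate receptor transcripts in neurons. EtOH replicates 1 to 3 had 20.6, 14.5 and 19.9 CPM, and Tet replicates 1 to 3 had 29.7, 23.1 and 30.4 CPM. All 3 Tet libraries were above all 3 EtOH libraries, and in both groups replicate 2 was the lowest. The means were 18.3 ± 3.31 CPM and 27.7 ± 4.03 CPM (SD, n = 3 each), a 1.51-fold ratio. The log2 fold change of 0.59 (SE 0.20, 95% interval 0.13 to 1.06) had an unadjusted p of 0.0176 and did not pass the threshold (edgeR adjusted p = 0.328). It lay between 0.46 and 0.71 in the alternative fits, with adjusted p-values from 0.0538 to 0.744.

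*ADARB2* (ENSG00000185736.16, chr10:1177313-1737525, minus strand), which encodes a brain-restricted relative without known editing activity, was close to the detection limit. Its counts were 24, 38 and 19 in EtOH and 15, 14 and 47 in Tet replicates 1 to 3, or 0.395 to 1.37 CPM. The highest value of each group came from a different replicate number, and the groups overlapped. The log2 fold change was -0.32 (SE 0.54, 95% interval -1.56 to 0.92, edgeR adjusted p = 0.902), so a change of either sign was not detectable at this depth unless it was large.

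*ILF2* (ENSG00000143621.17, chr1:153661788-153671028, minus strand) encodes NF45, a nuclear protein that acts in complexes bound to double-stranded RNA. EtOH replicates 1 to 3 had 362, 275 and 285 CPM, and Tet replicates 1 to 3 had 241, 243 and 245 CPM. The Tet libraries lay within a few CPM of each other and below all EtOH libraries, of which replicate 1 was the highest. The means were 307 ± 47.4 CPM and 243 ± 1.94 CPM (SD, n = 3 each). This log2 difference of -0.34 (SE 0.15, 95% interval -0.69 to 0.02) did not pass the threshold (edgeR adjusted p = 0.490), and it ranged from -0.41 to -0.22 in the alternative fits. Of the exon bases of *ILF2*, 2.87% are shared with *SNAPIN*.

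*QKI* (ENSG00000112531.17, chr6:163414000-163578592, plus strand) encodes the STAR-domain protein Quaking. It was at 355, 709 and 366 CPM in EtOH replicates 1 to 3 and at 438, 584 and 354 CPM in Tet replicates 1 to 3. As for *DHX9*, replicate 2 was the highest of each group. The log2 fold change was -0.06 (SE 0.30, 95% interval -0.74 to 0.63, edgeR adjusted p = 0.978). It ran from -0.27 without Tet replicate 2 to 0.35 without EtOH replicate 2, and was also above 0, at 0.10, without Tet replicate 3.

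*HNRNPL* (ENSG00000104824.18, chr19:38836370-38852347, minus strand) encodes a splicing regulator that binds CA-rich RNA. It was at 19.0, 8.30 and 15.6 CPM in EtOH and at 13.6, 11.3 and 14.3 CPM in Tet replicates 1 to 3, with replicate 2 the lowest of each group. The log2 fold change was -0.13 (SE 0.30, 95% interval -0.80 to 0.55, edgeR adjusted p = 0.934), and 0.11 without EtOH replicate 1. It shares 8.64% of its exon bases with another annotated gene, the largest share of the 8 genes.

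*KHSRP* (ENSG00000088247.18, chr19:6413102-6424811, minus strand) encodes a KH-domain protein of splicing and of AU-rich mRNA decay. It was at 29.9, 70.7 and 31.9 CPM in EtOH and at 33.8, 52.9 and 54.1 CPM in Tet replicates 1 to 3, so EtOH replicate 2 again held the extreme. The log2 fold change was 0.09 (SE 0.35, 95% interval -0.70 to 0.88, edgeR adjusted p = 0.967). The direction turned with single libraries here too, with a log2 fold change of 0.61 without EtOH replicate 2 (edgeR unadjusted p = 0.0170, adjusted p = 0.147), but -0.15 without EtOH replicate 1, -0.13 without EtOH replicate 3, -0.0059 without Tet replicate 2, -0.022 without Tet replicate 3 and -0.18 with GC correction. Processed or unprocessed copies of *DHX9*, *KHSRP*, *HNRNPL* and *ILF2* had at most 21 counts in any library.

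**Figure D1:**
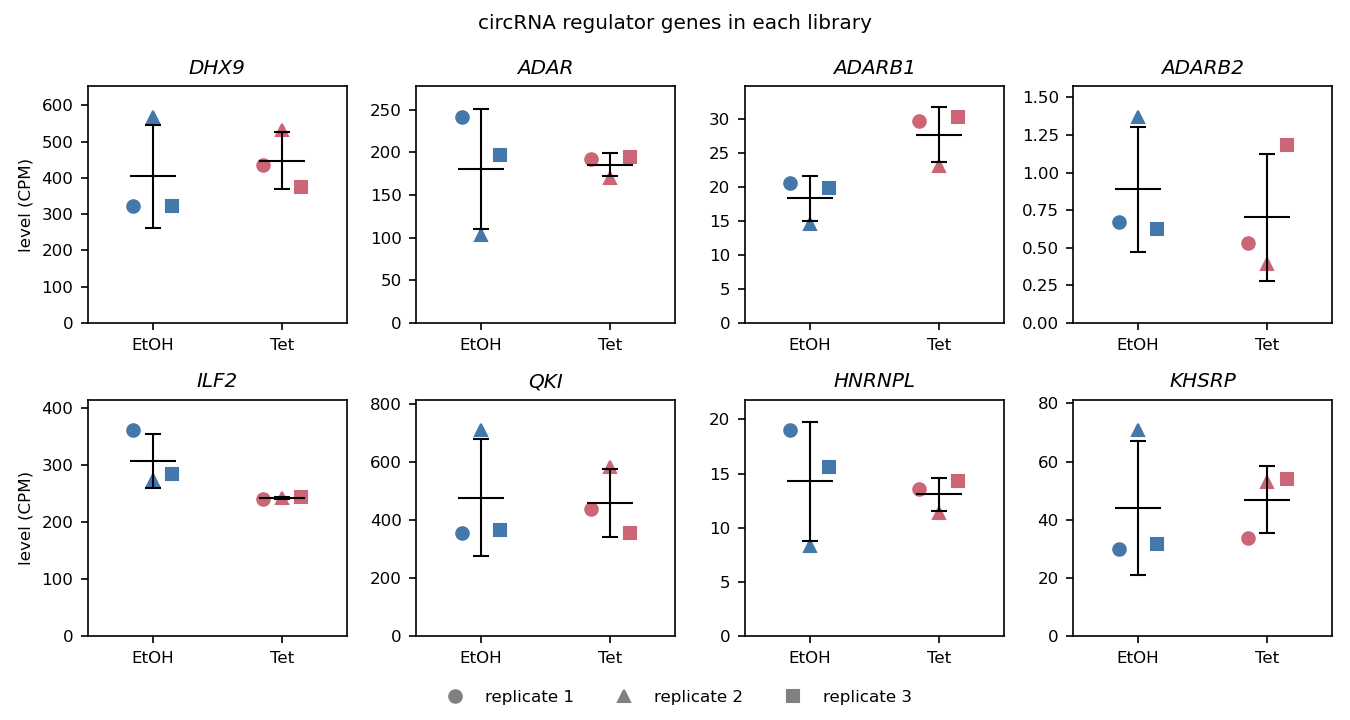
Level of each gene in CPM (y axis, starting at 0) in the 3 EtOH and 3 Tet libraries, with symbols for the replicate number and black bars for the mean ± SD. *ADARB1* and *ILF2* are the genes whose groups do not overlap, and EtOH replicate 2 is the highest library for *DHX9*, *QKI* and *KHSRP* and the lowest for *ADAR* and *HNRNPL*.

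**Figure D2:**
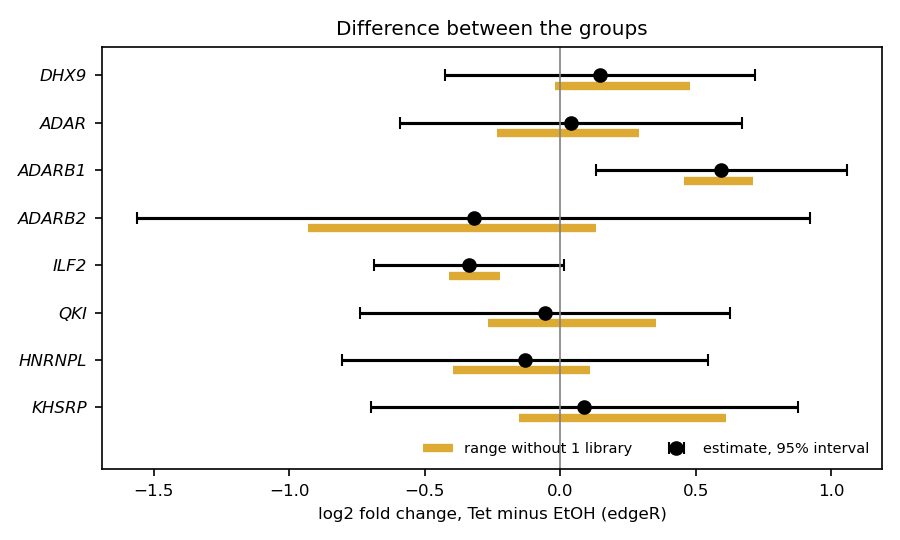
Log2 fold change of Tet against EtOH libraries for each gene (points, with 95% intervals from edgeR as black lines) and the range of the estimate when 1 library is left out (yellow bars). The *ADARB1* interval of 0.13 to 1.06 is the only one that does not include 0, and the yellow bars of *DHX9*, *ADAR*, *ADARB2*, *QKI*, *HNRNPL* and *KHSRP* cross 0.

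How the genes varied together was examined over the 6 libraries with Pearson's r of log2 CPM for all 28 pairs, by exact two-sided permutation tests adjusted over the 28 pairs. The smallest p that 6 libraries allow was 0.00139 for r and 0.00278 for Spearman's rho. By r, 7 of the 28 pairs passed the threshold, and by rho 3 pairs did. The share of all gene pairs that would pass the same test was not computed. Correlations of this size were common among all genes, as given below, so the count does not set these genes apart. *DHX9* and *QKI* rose and fell together across the libraries, *ADAR* and *HNRNPL* rose and fell together, and these pairs ran against each other.

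*DHX9* and *ADAR* were in exactly reversed order, with r = -0.82 (exact permutation p = 0.00139, adjusted p = 0.0130) and rho = -1 (p = 0.00278, adjusted p = 0.0259). Without both replicates numbered 2, the libraries farthest from the median of *DHX9*, r was -0.59. *DHX9* and *HNRNPL* were also in reversed order, with r = -0.93 (exact permutation p = 0.00139, adjusted p = 0.0130), rho = -1 (p = 0.00278, adjusted p = 0.0259) and r = -0.81 without those libraries. *ADAR* and *HNRNPL* had the same order, with r = 0.97 (exact permutation p = 0.00139, adjusted p = 0.0130), rho = 1 (p = 0.00278, adjusted p = 0.0259) and r = 0.95 without the 2 libraries farthest from the median of *ADAR*, EtOH replicates 1 and 2. These were the 3 pairs that passed by both measures. Any 2 of these exact orders fix the third, so they are not 3 separate results. An exact order also gives the most extreme r of its sign over all pairings, so r and rho are not separate support here. The exact orders rest in part on small gaps, as *DHX9* was at 322.80 and 322.92 CPM in EtOH replicates 1 and 3. *ADAR* was at 196.8, 194.7 and 192.5 CPM in EtOH replicate 3, Tet replicate 3 and Tet replicate 1. With relative log expression scaling, r of *DHX9* with *ADAR* was -0.81 (exact permutation, adjusted p = 0.0311).

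The other 4 pairs passed by r alone, each with rho of size 0.83 (exact permutation p = 0.0583, adjusted p = 0.181). *DHX9* and *QKI* had r = 0.95 (exact permutation p = 0.00694, adjusted p = 0.0324), and 0.82 without the 2 farthest libraries. *ADAR* and *QKI* had r = -0.89 (exact permutation p = 0.00556, adjusted p = 0.0311), and -0.95 without the 2 farthest. *QKI* and *HNRNPL* had r = -0.93 (exact permutation p = 0.00556, adjusted p = 0.0311), and -0.60 without the 2 farthest. *ADAR* and *KHSRP* had r = -0.82 (exact permutation p = 0.00972, adjusted p = 0.0389), and -0.55 without the 2 farthest. Both replicates numbered 2 were left out for *DHX9* with *QKI* and for *QKI* with *HNRNPL*. For the 2 pairs of *ADAR*, EtOH replicates 1 and 2 were left out. The last 2 relations were much weaker without these libraries, as was that of *DHX9* and *ADAR* above. Because the libraries left out differ between pairs, these values do not rank the pairs.

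*KHSRP* had an r of 0.79 with *DHX9* (adjusted permutation p = 0.255), 0.73 with *QKI* (adjusted permutation p = 0.307) and -0.86 with *HNRNPL* (adjusted permutation p = 0.0535), none of which passed the threshold. Without the 2 farthest libraries these values were 0.33, -0.25 and -0.59. Both replicates numbered 2 were left out for *DHX9* and *QKI*, and EtOH replicates 1 and 2 for *HNRNPL*. The relations of *KHSRP* with *DHX9* and *QKI* thus rested on the replicates numbered 2. For *ADARB1*, r over all libraries was -0.28 with *DHX9*, -0.56 with *QKI* and 0.45 with *HNRNPL*. Without the 2 farthest libraries it was 0.89, 0.40 and -0.48, the opposite sign in each case. Those left out were both replicates numbered 2 for *DHX9*, and EtOH replicate 2 and Tet replicate 3 for *QKI* and *HNRNPL*. Taken as deviations from the group means, the same r was -0.96 for *DHX9* and *ADARB1*, -0.97 for *QKI* and *ADARB1*, and 0.91 for *HNRNPL* and *ADARB1*, values given as a description with no test. Of the 28 pairs, 13 changed sign without the 2 farthest libraries, none of them among the 7 that passed. *ADARB1*, *ILF2* and *ADARB2* were in no pair that passed the threshold.

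These calls changed with the libraries that were kept. With any one of EtOH replicates 1, 2 and 3 or Tet replicates 1 and 2 left out, 0 of the 28 pairs passed the exact permutation test after adjustment. Without Tet replicate 3, 9 did, among them all 7. With 5 libraries fewer orders exist, and the 7 r values kept their sign in each of these fits, that of *DHX9* with *ADAR* ranging from -0.91 to -0.76 and that of *ADAR* with *HNRNPL* from 0.96 to 0.99.

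**Figure D3:**
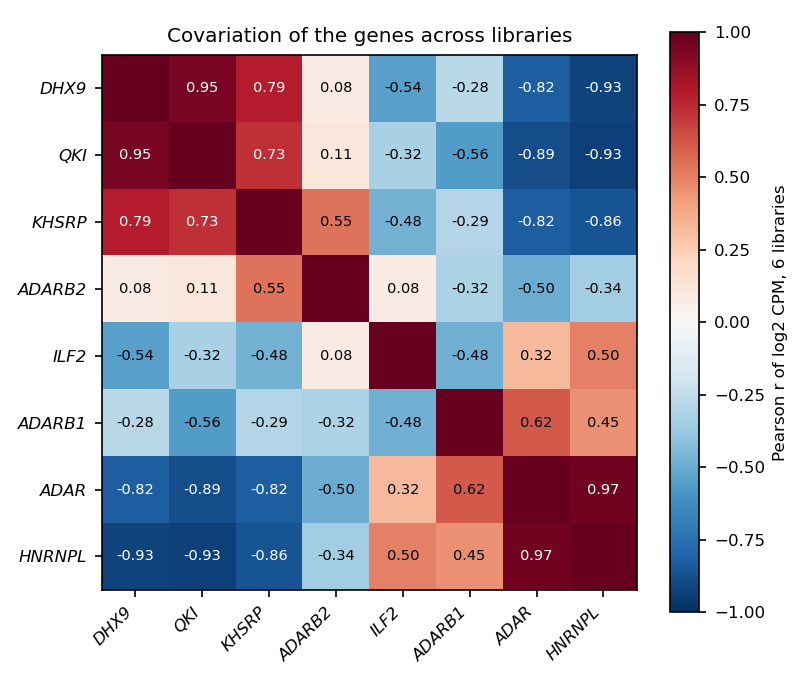
Pearson's r of log2 CPM over the 6 libraries for each pair of genes (colour and number). *DHX9* and *QKI* (0.95) stand against *ADAR* and *HNRNPL* (0.97), with values of -0.82 to -0.93 between them, and the positive values of *KHSRP* with *DHX9* (0.79) and *QKI* (0.73) did not pass the threshold and were 0.33 and -0.25 without the 2 farthest libraries.

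The same axis ran through properties of whole libraries. Of 32 relations of the 8 genes with library total, mitochondrial share, share of the nuclear RNA *MALAT1* and the first principal component, 8 passed the threshold by r after adjustment over the 32, and these were *DHX9*, *ADAR*, *QKI* and *HNRNPL* with the mitochondrial share and with the first component. With the mitochondrial share, r was -0.94 for *DHX9* (exact permutation p = 0.00694, adjusted p = 0.0278), -0.96 for *QKI*, 0.90 for *ADAR* and 0.95 for *HNRNPL* (p = 0.00278 and adjusted p = 0.0178 for each of these 3). Without the 2 libraries farthest from the median these values were -0.88, -0.96, 0.82 and 0.85. With the first component, r was 0.97 for *DHX9*, 0.99 for *QKI*, -0.91 for *ADAR* and -0.96 for *HNRNPL*. By rho, which was 0.94 in size for all 8 relations, 0 of 32 passed (exact permutation p = 0.0167, adjusted p = 0.0593). When any 1 library was left out, 0 of the 32 relations passed, although none of the 8 changed sign. The mitochondrial share and the first component put the libraries in exactly opposite orders, so relations with these properties are not separate results. The share of all genes with relations this strong to these properties was not computed. The genes themselves are 8 of the 22443 that enter the first component, and the part of library properties in the levels was not tested. The labels give no batch, so no value within a batch could be given.

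The 4 libraries outside replicate number 2 had mitochondrial shares from 6.82% to 10.01% and *DHX9* levels from 323 to 436 CPM. Both libraries with replicate number 2 had shares of 4.12% and 5.86% and *DHX9* levels of 568 and 533 CPM. Over the 6 libraries *ADARB1* had its largest r with another property, the *MALAT1* share, at 0.93 (exact permutation p = 0.0167, adjusted p = 0.0593). That share was 5.04% to 7.19% in EtOH and 7.27% to 9.53% in Tet libraries. With the mitochondrial share r was 0.46, and with the first component it was -0.50. Taken as deviations from the group means, r of *ADARB1* was 0.83 with the *MALAT1* share, 0.91 with the mitochondrial share and -0.97 with the first component, with no test. GC content, as the mean over the annotated transcripts of each gene, was 43.0% for both *DHX9* and *QKI*, 47.1% for *ILF2* and 50.1% for *ADAR*. It was 51.9% for *HNRNPL*, 52.0% for *ADARB1*, 60.3% for *KHSRP* and 62.0% for *ADARB2*, and its part in the shared pattern was not tested.

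**Figure D4:**
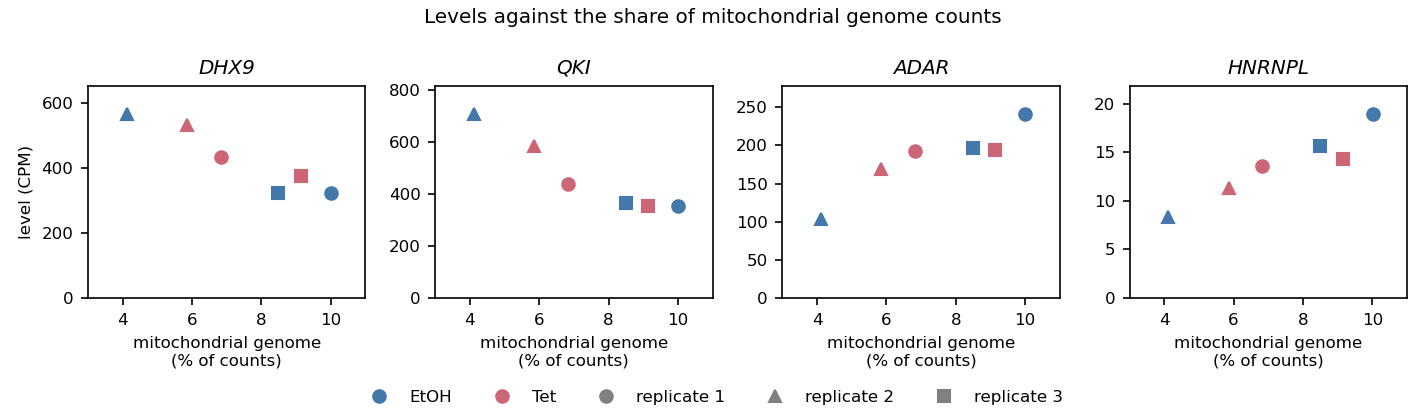
Levels of *DHX9*, *QKI*, *ADAR* and *HNRNPL* in CPM (y axes, starting at 0) against the percentage of counts from the mitochondrial genome (x axes), with 1 point per library, coloured by group and shaped by replicate number. *DHX9* and *QKI* fall and *ADAR* and *HNRNPL* rise from EtOH replicate 2 at 4.12% to EtOH replicate 1 at 10.01%.

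*MYCN* was set beside the 8 genes after its values had been seen, because it is the gene the models regulate. *QKI* went with *MYCN* at r = 0.95 (exact permutation p = 0.00417, adjusted over the 8 relations p = 0.0333), with rho = 0.94 (p = 0.0167) and r = 0.88 without the 2 farthest libraries. *DHX9* had r = 0.89 with *MYCN* and did not pass the threshold (exact permutation p = 0.0167, adjusted p = 0.0528). Neither did *ADAR* at -0.86 and *HNRNPL* at -0.88 (adjusted permutation p = 0.0528 for each). EtOH replicate 2 had the highest *MYCN*, *DHX9* and *QKI* of all 6 libraries, and also the highest score on the first component. The share of all genes with relations this strong to *MYCN* was not computed, so these values do not set the 8 genes apart from other genes.

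Correlations of this size were common in these libraries. Of the other 22442 genes tested, 13.9% had an r of at least 0.8 with *DHX9* and 15.4% had an r of at most -0.8. The shares were 13.3% and 11.1% for *ADAR*, 14.0% and 16.3% for *QKI* and 15.4% and 13.1% for *HNRNPL*. They were lower, at 6.47% and 8.85% for *KHSRP*, 6.72% and 6.37% for *ADARB1*, 3.54% and 4.78% for *ILF2*, and 1.67% and 1.24% for *ADARB2*. The pattern shared by *DHX9*, *ADAR*, *QKI* and *HNRNPL* was thus widely shared, for *DHX9* by 3112 genes on its side and 3447 on the other.

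**Figure D5:**
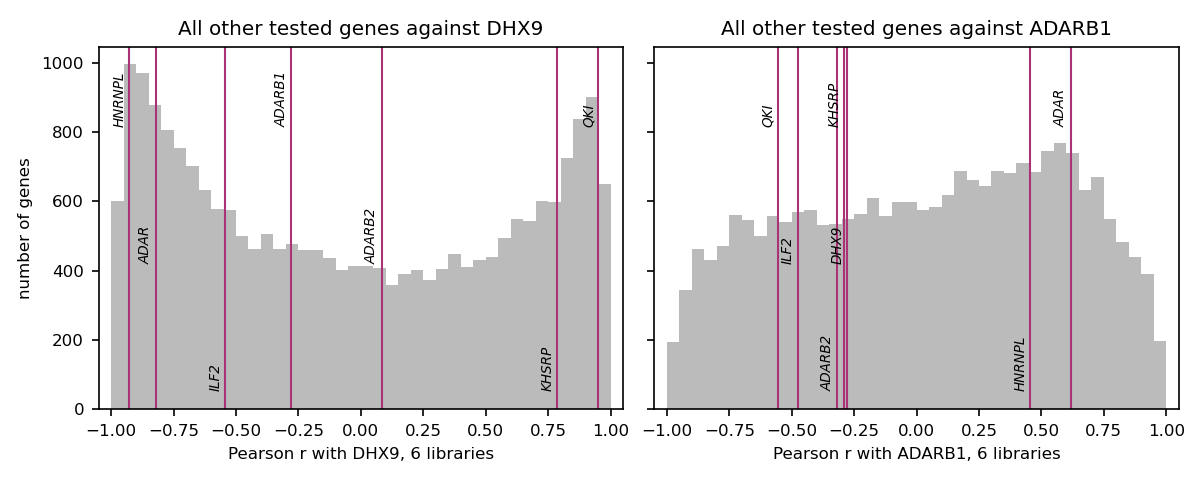
Number of tested genes (y axis) by Pearson's r of log2 CPM over the 6 libraries with *DHX9* (left) and *ADARB1* (right), in steps of 0.05, with purple lines at the other 7 genes described. The distribution for *DHX9* piles up toward both ends, where *QKI* (0.95) and *HNRNPL* (-0.93) lie, while that for *ADARB1* is flatter.

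The protein-coding genes most like each of the 8 were sought among 8225 with a mean of at least 5 CPM. For *DHX9* these were *UBLCP1*, *ISCA1* and *ZBTB8OS*, with r of 0.999, 0.998 and 0.998 over the 6 libraries. *UBLCP1*, a phosphatase of the proteasome, was at 79.4, 147 and 80.4 CPM in EtOH and 113, 133.7 and 94.6 CPM in Tet replicates 1 to 3, in the same order of libraries as *DHX9*. For *ADAR* they were the cytoskeletal linker gene *MACF1*, *NAGK* and *ASCC2* (r of 0.998, 0.996 and 0.995). For *QKI* they included the splicing factor gene *SRSF3* (r = 0.997), which was at 273, 800.1 and 282 CPM in EtOH and 402, 584 and 287 CPM in Tet replicates 1 to 3, beside *STAM* and *EEF1AKMT2*. For *HNRNPL* they were *KCTD7*, *SEC31B* and the mitochondrial genome gene *MT-CO3*, which fell to 959 CPM in EtOH replicate 2 from 3693 CPM in EtOH replicate 1. For *KHSRP* they were *PSMD1*, the topoisomerase gene *TOP1* and the replication checkpoint gene *CLSPN*. For *ADARB1* they were *CYP2U1*, the potassium channel gene *KCNMA1* and *SF3B1*, a core part of the U2 particle of the spliceosome, and for *ILF2* they were *ANKRD17*, *URB1* and *UFD1*. *ADARB2*, at few counts, had *UTP3*, *CYSTM1* and *TAF12*. With 6 points and this many genes searched, such values are a description.

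Other genes of circRNA formation and turnover were read in 5 lists of 117 genes in all, of which 106 were tested. None of the 106 passed the threshold in either direction (edgeR, adjusted p), against 0.147% of all genes higher and 0.0891% lower in Tet libraries. With an unadjusted p under 0.05, 6 were higher and 1 was lower, against 5.83% and 4.94% of all genes, and DESeq2 called 2 of the 106, *MBNL2* and *ELAVL3*. The groups did not overlap for 8 higher and 4 lower genes, against 9.20% and 8.28% of all genes. The median log2 fold change was 0.06.

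Among 16 tested relatives of the 8 genes, 0 had an unadjusted p under 0.05, and the extremes were *DHX30*, a mitochondrial helicase, at a log2 fold change of -0.10 and the splicing repressor *PTBP1* at 0.27. Among 12 tested genes of double-stranded RNA binding and sensing, 0 had an unadjusted p under 0.05, and the extremes were both parts of the microRNA processor, *DROSHA* at -0.20 and *DGCR8* at 0.22. The interferon-induced sensors *OAS1*, *OAS2*, *OAS3* and *IFIH1* had 4, 2, 8 and 10 counts over all 6 libraries and were not tested.

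Among 32 tested splicing factors tied to circRNAs, 4 had an unadjusted p under 0.05, and all were higher in Tet libraries. Of all genes tested, 5.83% were higher and 4.94% lower at an unadjusted edgeR p under 0.05, the background for each list in this paragraph. Over the 106 genes of all lists, 6 were higher, so genes named from 1 list were not set apart from that background. The neuronal RNA-binding gene *ELAVL3* had the highest value, with 15.1 ± 2.60 CPM in EtOH and 34.9 ± 7.72 CPM in Tet libraries (SD, n = 3 each), and its log2 fold change was 1.21 (edgeR adjusted p = 0.0818, SE 0.22). The others, named after their values were seen, were *MBNL2* at 1.07 (edgeR adjusted p = 0.0584), *ELAVL4* at 0.57 and *ZC3H14* at 0.50. *HNRNPA1* had the lowest value, -0.29. Among 26 tested genes of the core spliceosome and 3′ end processing, the extremes were *SNRPD2* at -0.59 and *CPSF1* at 1.10, both at few CPM. The 1 gene with an unadjusted p under 0.05, the cleavage endonuclease *CPSF3*, was at 112 ± 13.0 CPM in EtOH and 74.9 ± 6.57 CPM in Tet libraries (SD, n = 3 each; log2 fold change -0.58, edgeR adjusted p = 0.205). Among 23 tested genes of circRNA export and decay, the extremes were *DDX39B*, which exports long circRNAs, at -0.43 and *UPF1*, a helicase of RNA decay, at 0.63. *TNRC6A* and *TNRC6C*, scaffolds of microRNA silencing, were the 2 with an unadjusted p under 0.05, at 0.45 and 0.49.

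Many of these pathway genes followed *DHX9* across the libraries. Of the 106, 37 (34.9%) had an r of at least 0.8 with *DHX9* and 16 (15.1%) an r of at most -0.8, against 13.9% and 15.4% of all genes. The difference between these shares was not tested, and genes of one pathway are not independent. The shares of all genes also cover genes of every type and level, and shares among genes of like level were not computed. By list, 9 of 16 relatives followed *DHX9*, with *KHDRBS1* the closest (r = 0.99), as did 14 of 32 splicing factors, with *SRSF6* the closest (r = 0.99). Of the 26 core spliceosome and 3′ end genes, 3 followed *DHX9* and 9 ran against it, with *SF3A3* the farthest (r = -0.97). With *ADAR*, 13 of the 106 (12.3%) had an r of at least 0.8 and 26 (24.5%) an r of at most -0.8, the exosome nuclease gene *DIS3* being the farthest (r = -0.99).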

How the data were processed

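Total RNA depleted of ribosomal RNA was sequenced in 3 EtOH and 3 Tet cultures, which nothing in the labels says were grown independently, so p-values measure the spread between these libraries. The authors deposited 1 table of estimated counts per gene and library, not scaled for depth or length. Per the file headers, unique STAR alignments of trimmed reads were counted over exons with featureCounts 1.6.4, without strand, and pairs overlapping several genes were divided among them. The submitters' processing notes name STAR 2.7.1a, featureCounts 1.5.1 and GRCh38, and the study's methods describe stranded counting that admits multiple alignments. Here the headers were followed. Between 12.3% and 14.7% of genes per library had values that were not whole, where whole counts had been planned for, so counts were rounded.

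Genes were kept with filterByExpr, scaled by TMM and compared with the quasi-likelihood test of edgeR 4.0.16 in R 4.3.3, with Benjamini-Hochberg adjustment over all 22443 genes tested and no replicate block. CPM are TMM-normalised, and TPM were computed from counts and exon length. Correlations used log2 CPM with a prior count of 2. Alternatives included DESeq2 1.42.0, limma-voom (limma 3.58.1), other scalings and filters and leaving out libraries. The edgeR step was tested on simulated data. Symbols were matched for 60437 identifiers (99.6%), and 53025 of 53026 identifiers of the same version had identical coordinates in GENCODE on GRCh38. The 92 spike-in rows held 0 counts and were left out. Totals of 27933378 to 40498065 counts set the precision, and floors in CPM cover counting error only.

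The 8 genes and all gene lists were chosen with earlier results of these data known. Named besides them were *MYCN*, the genes of each other list that passed the threshold or had its highest and lowest log2 fold change, and for each of the 8 the 3 protein-coding genes with the highest r at a mean of at least 5 CPM. Other genes were named after their values were seen. Some genes of the lists are not reported here.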

Additional observations from a re-analysis of the deposited data

How the results depend on the processing

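None of the 8 genes passed the threshold in any of the alternatives run (other scalings and filters, DESeq2, limma-voom, thinning to equal totals, GC correction, a replicate block, and leaving out libraries). *ADARB1* stayed higher and *ILF2* lower in Tet libraries in all of them. GC correction, leaving out both replicates 2 and the relation to *MYCN* were added after seeing the data. Against 33 higher and 20 lower genes in the reported fit, no filter gave 185 and 117, DESeq2 290 and 209, GC correction 69 and 44, both replicates 2 left out 487 and 387, and relative log expression scaling 13 lower. With 1 library left out the counts ran from 0 to 361 higher and 0 to 331 lower. Higher genes numbered 0 without Tet replicate 1 or 3 (1078 and 1050 at an unadjusted edgeR p under 0.05), and lower genes 0 without EtOH replicate 3 or Tet replicate 1, 2 or 3 (704, 787, 772 and 1017). The cause was not tested.

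Of the 106 other pathway genes, 0 passed in the reported fit, 2 with no filter and 2 with DESeq2 (*MBNL2* and *ELAVL3*), 4 without both replicates 2 (these and *CPSF3* and *ZC3H14*), and 0 to 3 with 1 library left out, the 3 being without EtOH replicate 2.

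Deviations from the group means correlated at 0.0603, 0.510 and 0.219 for replicate numbers 1, 2 and 3. The value was highest for replicate number 2, and whether same-numbered samples share more than a number was not tested. Under a replicate block the counts were 421 higher and 254 lower, 4 of the 106 pathway genes and none of the 8 genes passed, and *ADARB1* had an adjusted p of 0.0612.

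Log2 fold changes that changed sign were *KHSRP* with GC correction (-0.18), and *ADAR* (-0.18), *ADARB2* (0.42), *QKI* (0.14) and *MYCN* (0.13) without both replicates 2. With 1 library left out the ranges were -0.018 to 0.48 for *DHX9*, -0.23 to 0.29 for *ADAR*, -0.93 to 0.13 for *ADARB2*, -0.27 to 0.35 for *QKI*, -0.40 to 0.11 for *HNRNPL*, -0.15 to 0.61 for *KHSRP*, -0.22 to 0.21 for *MYCN*, -0.29 to 0.052 for *DHX30*, -0.036 to 0.42 for *DGCR8* -0.87 to 0.055 for *SNRPD2* and -0.44 to 0.018 for *HAND2*. Of 136 values for the 8 genes, 121 kept direction and side of the threshold. Pairs of genes past the threshold numbered 0 to 9 with 1 library left out, against 7, and relations with library properties 0, against 8; the 17 correlations followed through the alternatives (these 7 and 8, and *MYCN* with *DHX9* and *QKI*) kept their sign, unlike 13 of the 28 pairs without the 2 farthest libraries. At the depth of these libraries, *ADARB2*, with 14 to 47 counts, allows no firm statement.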

Other observations

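Pathway genes were also read against *ILF2* and *ADARB1*, the genes whose groups did not overlap. Over the 6 libraries *CPSF3* had an r of 0.86 with *ILF2*, the RNA methyltransferase gene *METTL3* 0.85 and *DROSHA* 0.85, whereas *TNRC6B* had -0.91. With *ADARB1*, *SF3B1* had an r of 0.99, *MBNL2* 0.93 and *UPF1* 0.88, whereas the spliceosomal gene *SNRPD1* had -0.93 and *HNRNPA1* -0.87. Of the 106 pathway genes, 3 (2.83%) had an r of at least 0.8 with *ILF2* and 4 (3.77%) with *ADARB1*, against 3.54% and 6.72% of all genes. These genes were the extremes of their lists, their relation to *DHX9* was not set against these values, and the values are a description with no test.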
